A study of Mus musculus with 12 samples.

Results

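YAP/TAZ regulators and target genes were examined as 9 genes of the 45859 in each deposited table. Yap1, Wwtr1, Tead1, Lats2, Ankrd1, Amotl2 and Ajuba were taken as the rows bearing those 7 symbols, and Cyr61 and Ctgf (newer names Ccn1 and Ccn2) were added by name. This rule used no measured value, but the genes were chosen with earlier results of these data known. All 9 were found and all 9 exceeded the filter on low values in every comparison. RNA came from the lens cells (LCs) left on the capsule of adult mice 2 months old, in a model of cataract surgery in which the lens fiber cells are removed. Capsules were collected at 0 h or 24 h post cataract surgery (PCS), with several capsules pooled per library and 3 libraries in each of 4 groups. WT mice were C57BL/6 and carried neither transgene nor floxed allele. The β8ITG-cKO mice carried a floxed Itgb8 allele deleted by MLR10-Cre, a transgene expressed in lens cells, on a mixed C57BL/6 and 129S1/Sv background, so genotype, strain background and the presence of Cre cannot be told apart. No agent was given to any group.

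YAP (gene Yap1) and TAZ (gene Wwtr1) are transcriptional coactivators that respond to cell shape, adhesion, density and mechanical tension. In the Hippo pathway, the LATS kinases phosphorylate both proteins and hold them in the cytoplasm, while unphosphorylated YAP and TAZ enter the nucleus and bind DNA through TEAD factors. Cyr61, Ctgf and Ankrd1 are among their best known target genes, and the pathway is studied in epithelia that are wounded, spread or become fibrotic. Transcript levels do not show the phosphorylation or location of the proteins.

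TEAD factors bind a short sequence whose core is GGAATG on one strand and CATTCC on the other. RefSeq promoters of GRCm38.p6 were present in the reference table for 7 of the 9 genes, which left out Tead1 and Ctgf, and the 250 bases before each start were searched for GGAATG on both strands. At least 1 match was found in 6 of the 7, against 12.6% of 32817 promoter windows of the same length. Ankrd1 and Ajuba each held 2 matches, where 1.02% of windows held 2 or more, and Lats2 held none. TGANTCA, an AP-1 sequence found in 6.75% of windows, and the CArG box of serum response factor, found in 1.47%, were in none of the members' windows. No match overlapped another. The windows of the 4 genes with a match whose transcripts passed a test in the knockout between 0 h and 24 h are shown, 5′ to 3′ on the strand of the gene, with the matches in capitals.
Ankrd1 (chr19:36119845-36120094, minus strand): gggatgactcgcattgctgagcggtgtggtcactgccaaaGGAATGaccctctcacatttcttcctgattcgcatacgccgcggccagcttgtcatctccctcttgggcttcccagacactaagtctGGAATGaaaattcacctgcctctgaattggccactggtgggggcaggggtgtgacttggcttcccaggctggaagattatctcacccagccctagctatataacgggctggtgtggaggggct
Cyr61 (chr3:145649986-145650235, minus strand): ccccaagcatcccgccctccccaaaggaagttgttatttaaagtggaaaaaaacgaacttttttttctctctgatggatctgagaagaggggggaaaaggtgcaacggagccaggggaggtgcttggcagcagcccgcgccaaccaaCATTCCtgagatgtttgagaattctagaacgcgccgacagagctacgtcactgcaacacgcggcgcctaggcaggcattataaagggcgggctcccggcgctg
Wwtr1 (chr3:57575911-57576160, minus strand): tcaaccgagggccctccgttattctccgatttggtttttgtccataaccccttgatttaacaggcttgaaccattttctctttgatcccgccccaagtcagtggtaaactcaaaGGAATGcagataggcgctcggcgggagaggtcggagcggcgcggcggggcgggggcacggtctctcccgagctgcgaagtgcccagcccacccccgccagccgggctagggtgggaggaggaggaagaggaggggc
Ajuba (chr14:54577662-54577911, minus strand): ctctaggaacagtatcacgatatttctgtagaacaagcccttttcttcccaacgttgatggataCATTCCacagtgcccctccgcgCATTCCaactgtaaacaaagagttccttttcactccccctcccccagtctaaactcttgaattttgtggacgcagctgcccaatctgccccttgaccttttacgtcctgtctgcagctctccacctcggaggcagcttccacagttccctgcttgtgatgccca
The matches of Ankrd1 began 210 and 123 bases before its start, that of Cyr61 103 bases, that of Wwtr1 136 bases and those of Ajuba 186 and 164 bases. Among the genes not shown, Yap1 had its match 141 bases and Amotl2 65 bases before the start. Wwtr1 and Lats2 have several windows in the table, and the start that defines the Ajuba window was not that of an annotated GENCODE transcript. The Ankrd1, Amotl2 and Lats2 windows lie inside the GENCODE extent of their genes, which begins further upstream. A match is a string of letters, and binding was not measured.

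Values are FPKM, fragments scaled by transcript length and by library size, so levels of different genes may be compared. Summed FPKM per library ran from 446531 to 740140, with 36.03% to 49.57% of it in the 10 highest genes, and relative depth inferred from low values ran from 0.865 to 1.087. All 8 lens epithelium markers had a group mean of at least 1 FPKM in each group. Itgb8 itself had 7.26 to 10.78 FPKM in WT 0 h, 4.58 to 7.31 FPKM in β8ITG-cKO 0 h, 8.38 to 9.58 FPKM in WT 24 h and 9.28 to 11.83 FPKM in β8ITG-cKO 24 h. Its ranges overlapped between genotypes at both times, so the genotype of these libraries rests on the labels. Transcripts from the floxed gene outside the deleted stretch still count toward this value. For this mouse line the study reported the deletion by PCR of lens DNA and by immunofluorescence of the protein. WT 0 h replicate 2 stood apart, with 1223 FPKM in the summed 12 markers of photoreceptors and other retinal neurons. The same 12 markers summed in β8ITG-cKO 24 h to 904 to 1060 FPKM, against 81.6 to 155 FPKM in WT 24 h and 192 to 350 FPKM in β8ITG-cKO 0 h. A fall or rise in bulk RNA cannot tell fewer cells of a type from less RNA per cell.

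**Figure D1:**
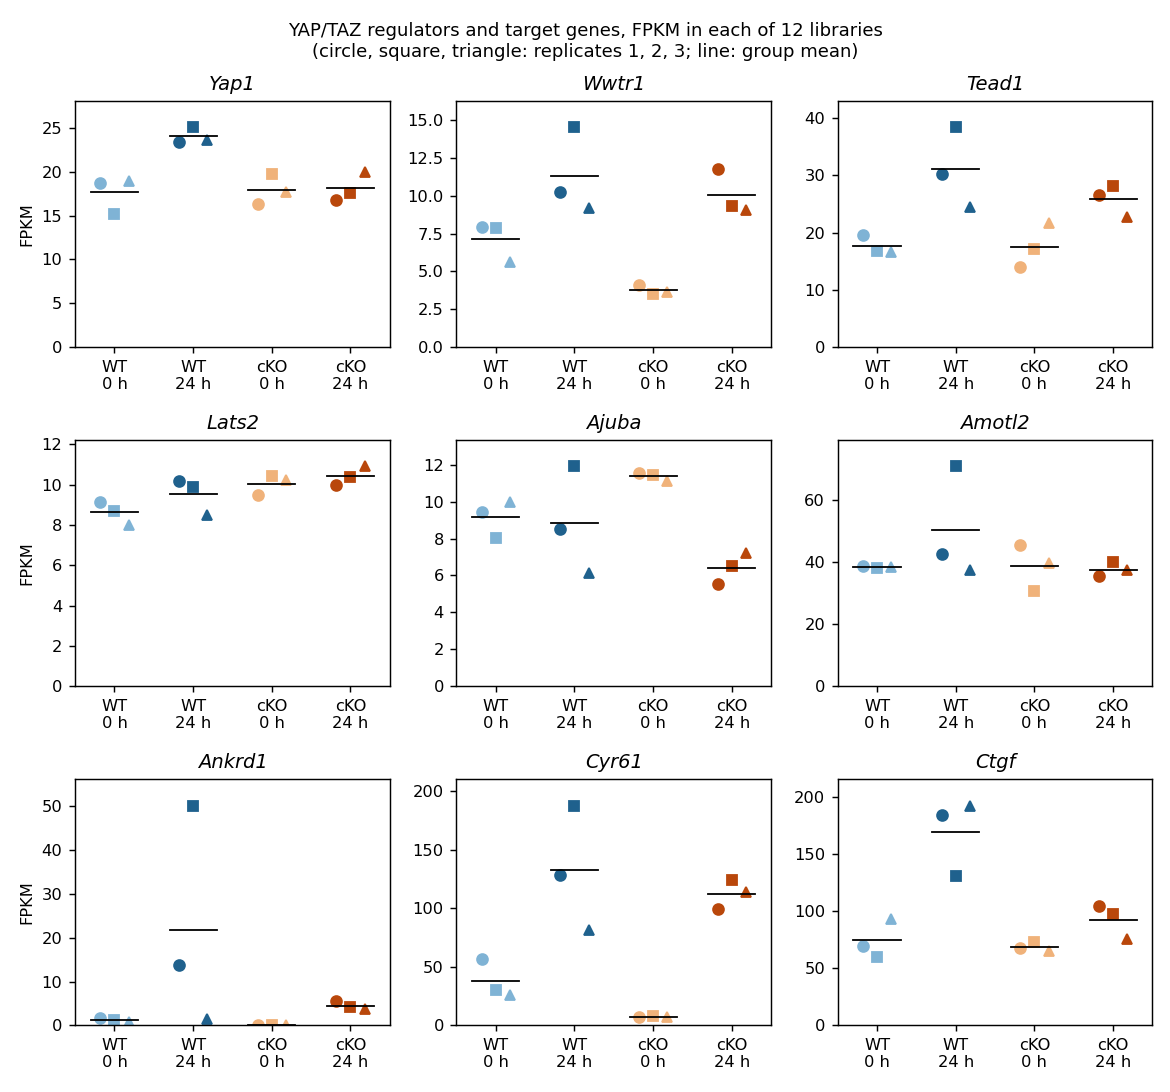
FPKM (y axes, linear and starting at 0) of the 9 genes in the 12 libraries, with circle, square and triangle for replicates 1, 2 and 3 of each group and a line at the group mean. Cyr61 sits at 8.19 FPKM or less in all β8ITG-cKO 0 h libraries and at 81.42 FPKM or more in all 24 h libraries, while Lats2 stays between 8.02 and 10.91 FPKM throughout.

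Each difference below is on the log2(FPKM + 1) scale with its standard error, and adjusted p values are from limma-trend with Benjamini-Hochberg adjustment over all genes tested. A gene passed at an adjusted p of at most 0.05. The median over all genes rose between 0 h and 24 h by 0.16 in WT and by 0.23 in β8ITG-cKO, and changes over time are to be read against these shifts. Rises made up 70.3% of the genes passing in WT and 76.7% in β8ITG-cKO, which became 47.3% and 51.7% when the libraries were rescaled to the same median. The 10 lens fiber markers, whose cells the surgery removes, fell in sum from 4607 to 5983 FPKM at 0 h to 641 to 1304 FPKM at 24 h in WT, and from 5483 to 6209 FPKM to 701 to 799 FPKM in β8ITG-cKO. The 8 lens epithelium markers summed to 13502 to 40294 FPKM in WT 0 h, 17892 to 21541 FPKM in WT 24 h, 40334 to 43076 FPKM in β8ITG-cKO 0 h and 11542 to 14001 FPKM in β8ITG-cKO 24 h. Cryaa and Cryab made up most of each sum, so the sum follows these 2 crystallins and not the other markers of the list. The lowest WT 0 h sum was in replicate 2, where Cryaa was listed at 0, against 28166.6 and 24295.6 FPKM in replicates 1 and 3. Cdh1 was at 55.62 to 63.05 FPKM in WT 0 h and 75.2 to 89.98 FPKM in WT 24 h. In β8ITG-cKO it was at 93.21 to 98.31 FPKM at 0 h and 37.66 to 46.49 FPKM at 24 h. Other markers of the list did not follow Cdh1 in WT. There, Foxe3 was at 70.41 to 78.05 FPKM at 0 h and 26.16 to 46.79 FPKM at 24 h. Npnt was at 47.14 to 51.14 and 3.44 to 7.56 FPKM, and Pax6 at 88.6 to 93.49 and 76.52 to 82.14 FPKM. Six3 and Mab21l1 overlapped between times. Pax6 in β8ITG-cKO was at 85.53 to 92.58 FPKM at 0 h and 59.9 to 79.41 FPKM at 24 h. The part of either marker list in the changes over time was not tested. In WT LCs, 3 of the 9 genes were higher at 24 h PCS than at 0 h and 0 were lower, where 20.9% of all genes tested were higher and 8.81% lower. In β8ITG-cKO LCs, 5 were higher and 1 was lower, where 35.4% of all genes were higher and 10.7% lower. At 0 h PCS, in capsules already operated on, the knockout libraries held less Cyr61, Ankrd1 and Wwtr1 RNA than WT, and at 24 h PCS none of the 9 differed past the threshold. Median differences of the 9 genes over time were 0.59 in WT and 0.42 in β8ITG-cKO. The time comparisons share no libraries, but each shares its 0 h and 24 h libraries with a comparison of genotypes.

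Yap1 encodes the coactivator YAP. Its level in WT was 18.73, 15.24 and 19.01 FPKM at 0 h and 23.46, 25.10 and 23.58 FPKM at 24 h. In β8ITG-cKO it was 16.38, 19.78 and 17.68 FPKM at 0 h and 16.81, 17.60 and 19.97 FPKM at 24 h. Thus the 3 WT 24 h libraries were above the other 9 without overlap, and those 9 were intermixed. The WT change of 0.43 ± 0.14 had an adjusted p of 0.0506, just outside the threshold, and the β8ITG-cKO change was 0.01 ± 0.11 (adjusted p = 0.928). At 24 h the knockout minus WT difference was -0.39 ± 0.12 (adjusted p = 0.12), which reached 0.0386 after the libraries were rescaled to the same median. The difference between the changes of the genotypes was -0.42 ± 0.17 (adjusted p = 0.145).

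Wwtr1 encodes TAZ, the partner of YAP in this pathway. The WT libraries held 7.94, 7.87 and 5.64 FPKM at 0 h and 10.24, 14.55 and 9.21 FPKM at 24 h, and the β8ITG-cKO libraries 4.13, 3.48 and 3.61 FPKM at 0 h and 11.77, 9.34 and 9.07 FPKM at 24 h. All 3 knockout 0 h libraries lay below every other library, and the 24 h libraries of the genotypes overlapped. The rise in β8ITG-cKO was 1.22 ± 0.13 (2.69-fold between means, adjusted p = 0.000241) and held with any 1 library left out. In WT the change was 0.59 ± 0.21 (adjusted p = 0.0667). At 0 h the knockout was lower by a log2 difference of -0.77 ± 0.15 (adjusted p = 0.0273), which no longer passed in 5 of the 6 fits that left out 1 library (adjusted p up to 0.109). The test of a different change over time gave 0.63 ± 0.25 (adjusted p = 0.143).

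The relative amounts of the coactivator transcripts within a library do not depend on how libraries are scaled. Wwtr1 was 0.424, 0.516 and 0.297 times Yap1 in WT 0 h and 0.436, 0.58 and 0.391 times in WT 24 h libraries. In β8ITG-cKO the ratio was 0.252, 0.176 and 0.204 at 0 h and 0.7, 0.531 and 0.454 at 24 h. Yap1 was therefore the more abundant in all 12 libraries, the ratio overlapped between times in WT, and it was higher in every 24 h than every 0 h library of the knockout.

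Tead1 encodes a DNA-binding partner of YAP and TAZ. It had 19.52, 16.83 and 16.66 FPKM in WT 0 h, 30.32, 38.44 and 24.55 FPKM in WT 24 h, 13.93, 17.08 and 21.61 FPKM in β8ITG-cKO 0 h and 26.51, 28.11 and 22.77 FPKM in β8ITG-cKO 24 h libraries. Every 24 h library exceeded every 0 h library, of either genotype. The rise was 0.76 ± 0.18 in WT (1.76-fold, adjusted p = 0.018) and 0.55 ± 0.16 in β8ITG-cKO (1.47-fold, adjusted p = 0.0254). Without WT 0 h replicate 2 or 3 the WT rise had adjusted p = 0.057 or 0.0579. The knockout rise missed the threshold in 4 of 6 fits with a library left out (adjusted p up to 0.0813), and it was 0.26 (adjusted p = 0.274) once libraries had the same median. The genotypes differed by -0.03 ± 0.16 at 0 h (95% interval -0.40 to 0.34) and -0.24 ± 0.18 at 24 h (-0.67 to 0.18).

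Lats2, a kinase that inhibits YAP and TAZ and is itself among their known targets, had 9.14, 8.71 and 8.02 FPKM in WT 0 h, 10.20, 9.91 and 8.52 FPKM in WT 24 h, 9.50, 10.42 and 10.25 FPKM in β8ITG-cKO 0 h and 9.97, 10.36 and 10.91 FPKM in β8ITG-cKO 24 h libraries. It varied least of the 9, and neighbouring groups overlapped throughout. No comparison passed, the intervals being -0.19 to 0.45 for time in WT, -0.17 to 0.26 for time in β8ITG-cKO, -0.18 to 0.41 for genotype at 24 h and -0.04 to 0.44 for genotype at 0 h. The values over time turned negative (-0.11 in WT and -0.23 in β8ITG-cKO) when libraries were rescaled to the same median. In the GENCODE annotation 42.4% of its exon bases are shared with a predicted gene on the same strand, so its reads could be divided between them.

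Ajuba, a LIM protein that binds LATS kinases and restrains them, was the only member that fell over time. WT libraries had 9.42, 8.03 and 9.99 FPKM at 0 h and 8.54, 11.91 and 6.12 FPKM at 24 h, and β8ITG-cKO libraries 11.56, 11.45 and 11.13 FPKM at 0 h and 5.55, 6.49 and 7.23 FPKM at 24 h. The knockout 0 h libraries were tightly grouped and above every library of the same genotype at 24 h, whereas the WT 24 h libraries spanned most of the range. Ajuba fell by 0.74 ± 0.11 on the log2 scale in β8ITG-cKO (1.77-fold, adjusted p = 0.0013), in every fit with a library left out, and changed by -0.08 ± 0.22 in WT (adjusted p = 0.816). The difference between these changes was -0.66 ± 0.26 (adjusted p = 0.139) and passed only without WT 24 h replicate 3 (-0.88, adjusted p = 0.0224) among the fits with 1 library left out.

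Amotl2, an angiomotin family scaffold that binds YAP and TAZ and is among their targets, was present at 38.75, 38.07 and 38.50 FPKM in WT 0 h, 42.66, 70.97 and 37.46 FPKM in WT 24 h, 45.46, 30.65 and 39.92 FPKM in β8ITG-cKO 0 h and 35.56, 40.03 and 37.42 FPKM in β8ITG-cKO 24 h libraries. One value, WT 24 h replicate 2, stood above the rest, and all groups overlapped with their neighbours. The WT change was 0.33 ± 0.23 (adjusted p = 0.315), and 0.06 without that library. The β8ITG-cKO change was -0.02 ± 0.15 (adjusted p = 0.92, 95% interval -0.36 to 0.32).

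Cyr61 is a secreted matricellular protein and an early target of YAP and TAZ. On the log2(FPKM + 1) scale it showed the largest differences that passed among the 9 genes, over time in each genotype and between genotypes at 0 h. That order depends on the pseudocount. By ratio of means, Ankrd1 differed more in both comparisons that use β8ITG-cKO 0 h, where its values were near 0. It had 56.92, 30.43 and 25.84 FPKM in WT 0 h, 128.32, 187.77 and 81.42 FPKM in WT 24 h, 6.82, 8.19 and 7.32 FPKM in β8ITG-cKO 0 h and 99.44, 124.60 and 113.58 FPKM in β8ITG-cKO 24 h libraries. The knockout 0 h libraries were below every WT library, and the 24 h libraries of the genotypes overlapped above every 0 h library. The rise was 3.51-fold between means in WT (1.79 ± 0.37, adjusted p = 0.0102) and 15.1-fold in β8ITG-cKO (3.75 ± 0.11, adjusted p = 1.85e-06). At 0 h the knockout mean was 5.07-fold lower (-2.12 ± 0.26, adjusted p = 0.00635), and at 24 h the difference was -0.16 ± 0.29 (adjusted p = 0.805, 95% interval -0.83 to 0.51). The change over time differed between genotypes by 1.96 ± 0.43 (adjusted p = 0.0171). Every Cyr61 call held with any 1 library left out, including WT 0 h replicate 2, without which the WT rise had adjusted p = 0.0385.

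Ctgf, the matricellular relative of Cyr61 and also a known target of TGF-β, was not low in the knockout at 0 h. WT libraries had 69.66, 60.29 and 93.45 FPKM at 0 h and 184.74, 130.57 and 192.64 FPKM at 24 h. In β8ITG-cKO it had 67.77, 72.67 and 65.13 FPKM at 0 h and 104.82, 97.79 and 75.63 FPKM at 24 h. The 3 WT 24 h libraries were above all others, and the knockout 24 h libraries were above their own 0 h libraries by a small margin. Ctgf rose 2.27-fold in WT (1.18 ± 0.22, adjusted p = 0.00755), with any 1 library left out. The β8ITG-cKO rise was 1.35-fold (0.42 ± 0.13, adjusted p = 0.0349), missed the threshold in 5 of 6 fits with a library left out (adjusted p up to 0.111), and was 0.12 (adjusted p = 0.573) with libraries rescaled to the same median. At 24 h the knockout mean was 1.83-fold lower (-0.85 ± 0.20), with an adjusted p of 0.0545 that became 0.0348 without WT 24 h replicate 2 and 0.0163 in 1 fit over all 12 libraries. The difference between the changes was -0.76 ± 0.27 (adjusted p = 0.109). An antisense gene covers 23.2% of the Ctgf exon bases, and whether the counting used strand is not given in the sources used here.

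The ratio of Cyr61 to Ctgf within a library, which scaling cannot alter, was 0.817, 0.505 and 0.277 in WT 0 h and 0.695, 1.44 and 0.423 in WT 24 h. In β8ITG-cKO it was 0.101, 0.113 and 0.112 at 0 h and 0.949, 1.27 and 1.5 at 24 h. The WT ratios overlapped between times, whereas the knockout ratios were below every WT library at 0 h and overlapped WT 24 h at the later time.

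Ankrd1, a nuclear ankyrin repeat protein of stressed muscle that is also a widely used YAP/TAZ readout, had the lowest group mean of the 9 genes in 3 of the 4 groups, though not in WT 24 h, and was the most variable over the 12 libraries. It had 1.61, 1.30 and 0.80 FPKM in WT 0 h, 13.89, 50.13 and 1.42 FPKM in WT 24 h, 0.05 and 0.02 FPKM and a listed 0 in β8ITG-cKO 0 h, and 5.56, 4.11 and 3.66 FPKM in β8ITG-cKO 24 h libraries. WT 24 h replicate 3 lay within the WT 0 h range, and the knockout 0 h libraries lay below every other library. The WT change was 2.47 ± 0.93 (adjusted p = 0.0819), and without WT 24 h replicate 3 it was 3.64 (adjusted p = 0.00268). The rise in β8ITG-cKO was 2.40 ± 0.16 (adjusted p = 3.21e-05), on a scale whose pseudocount of 1 FPKM exceeds all 0 h values, so no fold is given. At 0 h the knockout was lower by -1.11 ± 0.18 (adjusted p = 0.0174). This call was lost without β8ITG-cKO 0 h replicate 2 or 3 (adjusted p = 0.0604 or 0.0811) and in 1 fit over the 12 libraries (0.446), and Ankrd1 fell below the filter without WT 0 h replicate 1 or 2. At 24 h the difference was -1.19 ± 0.95 (adjusted p = 0.537), and -2.36 (adjusted p = 0.04) without WT 24 h replicate 3. That library had 44.75% of its FPKM in the 10 highest genes, against 36.03% and 36.53% in the other WT 24 h libraries. The difference between the changes over time was -0.08 (adjusted p = 0.978) at a pseudocount of 1 and 2.22 (adjusted p = 0.318) at 0.1. Ankrd1 is also a muscle gene, and the 7 skeletal muscle markers summed to at most 2.71 FPKM in any library. The 5 smooth muscle markers summed to 4.2 to 8.43 FPKM in WT 0 h, 10.6 to 15.7 FPKM in WT 24 h, 1.95 to 3.84 FPKM in β8ITG-cKO 0 h and 11.9 to 12.2 FPKM in β8ITG-cKO 24 h, with Smtn the largest part in every library. Smtn had 4.68, 1.96 and 3.52 FPKM in WT 0 h, 10.96, 12.34 and 8.85 FPKM in WT 24 h, 2.60, 1.53 and 2.95 FPKM in β8ITG-cKO 0 h and 10.05, 9.75 and 8.70 FPKM in β8ITG-cKO 24 h. Myh11, the smooth muscle myosin, was at most 3.37 FPKM and overlapped between times in WT, and Cnn1 and Myocd stayed below 1 FPKM throughout. The part of smooth muscle RNA in the result was not tested.

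**Figure D2:**
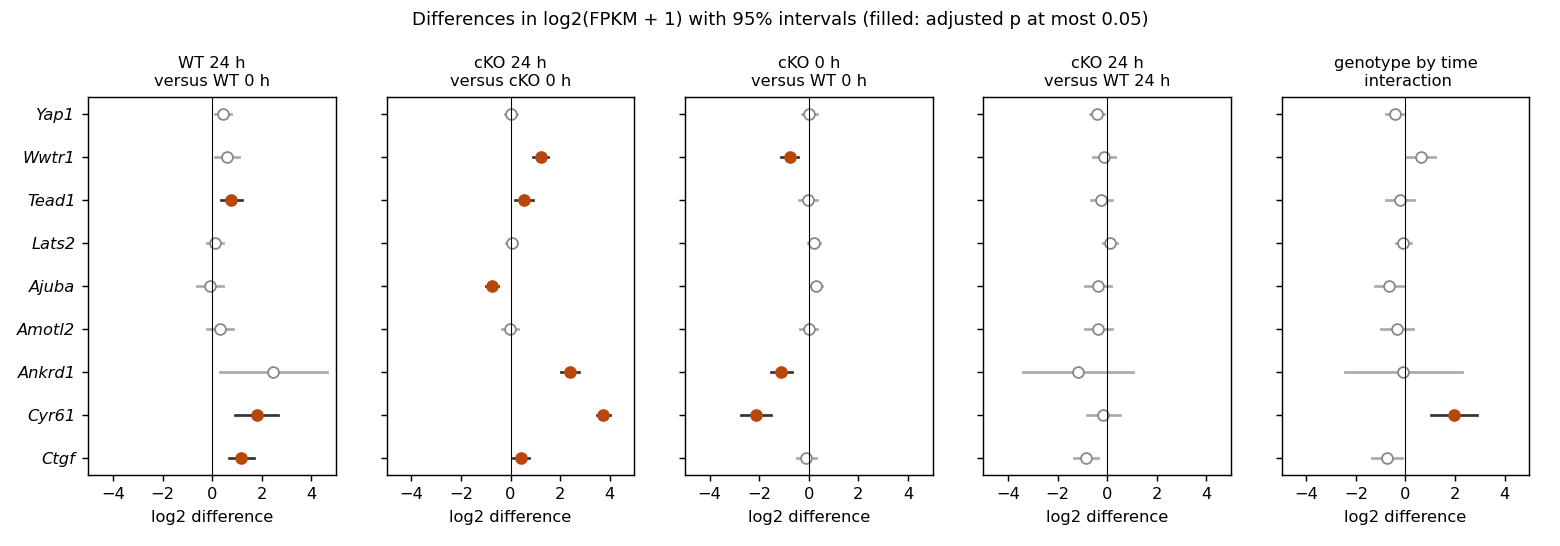
Log2 differences (x axes) of the 9 genes with 95% intervals in the comparisons over time, between genotypes at each time, and in the interaction of genotype and time. Filled points passed an adjusted p of 0.05: 3 in WT over time, 6 in β8ITG-cKO over time, 3 between genotypes at 0 h, none at 24 h and Cyr61 alone in the interaction.

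The comparisons between genotypes are set side by side here. At 0 h, 3 were lower and 0 higher in β8ITG-cKO, where 2.75% of all genes were lower and 4.18% higher. Marker sums of other tissues also differed between genotypes at 0 h. The red blood cell and iris lists were lower in β8ITG-cKO. The corneal epithelium sum given below was higher, through Aldh3a1 alone, while Krt5, Krt12 and Krt14 were at most 3.17 FPKM in either genotype at 0 h. The 4 red blood cell markers summed to 66.9 to 151 FPKM in WT 0 h and 6.25 to 15.5 FPKM in β8ITG-cKO 0 h, and overlapped at 24 h (35.6 to 218 FPKM in WT and 86.8 to 193 FPKM in β8ITG-cKO). The 5 markers of iris and ciliary pigment cells summed to 19.9 to 83.7 FPKM in WT 0 h and 11.5 to 15.5 FPKM in β8ITG-cKO 0 h, and to 27.5 to 33.3 FPKM in WT 24 h and 12.6 to 23.7 FPKM in β8ITG-cKO 24 h. No marker of either list was at 0 in a whole group, and their part in the 0 h differences of Cyr61, Ankrd1 and Wwtr1 was not tested. At 24 h, 0 passed limma in either direction, where 0.644% of all genes passed as lower and 5.64% as higher. At an unadjusted p under 0.05 there were 2 (Yap1 and Ctgf, both lower). The share of all genes at that unadjusted level was not computed. The median difference of the 9 genes was -0.03 at 0 h and -0.36 at 24 h, against 0.02 and 0.03 over all genes, and 8 of 9 values at 24 h were below 0. In the interaction, 1 of the 9 passed with a larger change in the knockout and 0 with a smaller one, where 6.83% and 2.56% of all genes did. The plot of log2 differences shows how wide the Ankrd1 intervals were in the comparisons that include WT 24 h. Retinal RNA was higher in every β8ITG-cKO 24 h than WT 24 h library, as given above, and its part in these differences was not tested. The 6 neutrophil markers summed to 41.4 to 57.9 FPKM in WT 24 h and 10.5 to 30.8 FPKM in β8ITG-cKO 24 h, with Ly6g, Mpo and Elane listed at 0 in all libraries, and were at most 0.665 FPKM at 0 h.

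**Figure D3:**
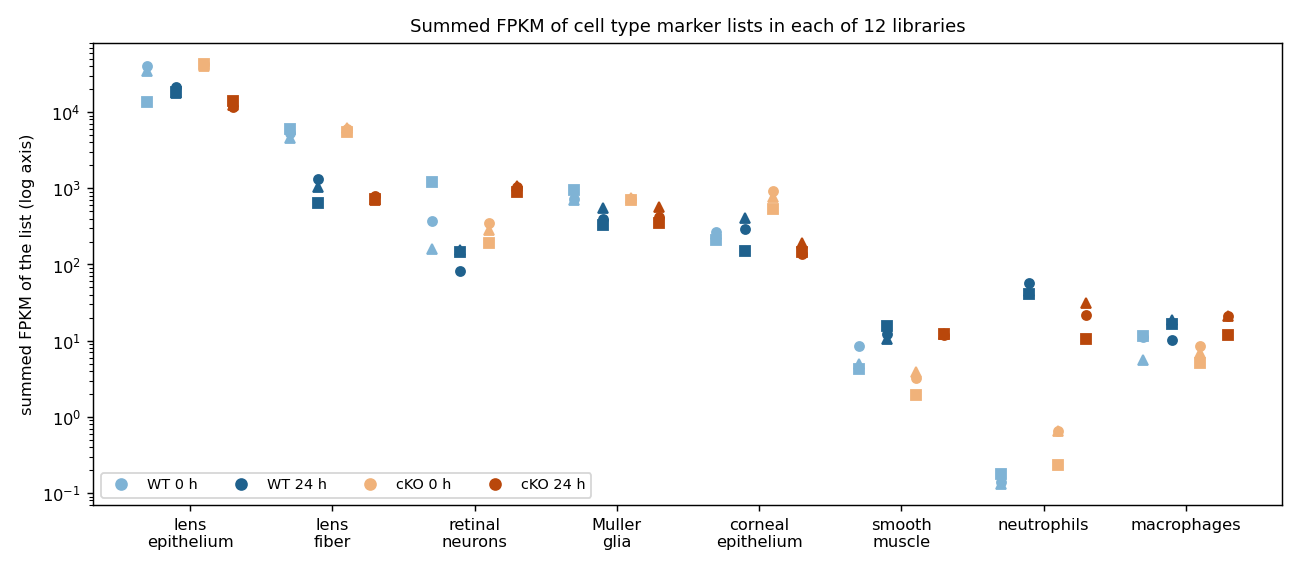
Summed FPKM of 8 marker lists (y axis, log scale) in each library, with colors for the 4 groups and circle, square and triangle for replicates 1, 2 and 3. Retinal neuron markers are at 904 to 1060 FPKM in β8ITG-cKO 24 h, against 155 FPKM or less in WT 24 h. Lens epithelium markers, mostly Cryaa and Cryab, lead in every library.

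The corneal epithelium lies next to the surgical wound. Of its 5 markers, 4 were in the tables, and their sum was 208 to 269 FPKM in WT 0 h, 152 to 401 FPKM in WT 24 h, 536 to 911 FPKM in β8ITG-cKO 0 h and 139 to 190 FPKM in β8ITG-cKO 24 h. Nearly all of it was Aldh3a1, an enzyme, while the keratins Krt5, Krt12 and Krt14 were at most 6.88 FPKM. The plot of marker lists gives these sums by library.

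The kinases and upstream regulators of the Hippo pathway other than Lats2 were followed as a list of 28 genes. In WT, 5 of 27 tested were higher and 2 lower at 24 h (median 0.36), and in β8ITG-cKO 12 of 28 were higher and 2 lower (median 0.28). Over all genes tested, 20.9% were higher and 8.81% lower in WT and 35.4% and 10.7% in β8ITG-cKO, so the WT shares of the list were near those of all genes. In limma 0 of 28 passed between genotypes at 0 h, at 24 h or in the interaction. At an unadjusted p under 0.05 there were 5, 2 and 7, and the shares of all genes at that level were not computed. Of all genes, 4.18% passed as higher and 2.75% as lower at 0 h, and 5.64% and 0.644% at 24 h. In the interaction 6.83% had a larger and 2.56% a smaller change, so 0 of 28 says little about this list. With libraries rescaled to the same median the knockout count over time became 3 higher and 5 lower, and with the same FPKM sum 20 higher and 2 lower. Of all calls, 51.7% were higher with the same median and 90.4% with the same FPKM sum. The balance of direction thus depended on the scaling, for this list and for all genes. Rescaling to the same FPKM sum also gave 9 lower in the knockout at 0 h. There the median over all genes was -0.27 and 8.37% of all calls were higher, so these 9 are to be read against that shift. At 24 h, 1 was lower both in 1 fit over 12 libraries and without WT 24 h replicate 3, where 79.6% and 79.3% of all calls were higher. In the interaction, 1 had a smaller change with the same median and 2 a larger one with the same FPKM sum. Without WT 24 h replicate 3, 2 had a smaller change, and without WT 24 h replicate 1, 1 had a larger one. Larger changes made up 62.8%, 95.4%, 59.8% and 72% of all calls in these fits, in that order. The largest differences were falls of the giant cadherin Fat4, at -1.33 ± 0.16 in WT (adjusted p = 0.00143) and -1.68 ± 0.34 in β8ITG-cKO (adjusted p = 0.00564). Fat4 had 15.20, 20.37 and 19.72 FPKM in WT 0 h and 7.33, 6.79 and 5.92 FPKM in WT 24 h, with 19.10, 33.71 and 27.40 FPKM and 7.18, 4.30 and 12.93 FPKM in the knockout. Its relative Fat1 fell in β8ITG-cKO from 181.09, 230.68 and 213.07 FPKM to 80.94, 103.14 and 93.74 FPKM (-1.16, adjusted p = 0.000384). Genes that rose included the LATS coactivator Mob1a (0.94, adjusted p = 0.00743) and the kinase Map4k4 (0.90, adjusted p = 0.00288) in WT, and the kinase Taok3 (0.97, adjusted p = 0.000297) in β8ITG-cKO. The 24 h libraries were below the 0 h libraries without overlap for both cadherins, and each of these calls held with any 1 library left out. Most of these genes also passed in the other genotype. Fat1 fell in WT (-0.77, adjusted p = 0.0104), and Mob1a (0.40, adjusted p = 0.0158) and Map4k4 (0.45, adjusted p = 0.00915) rose in β8ITG-cKO. Taok3 did not pass in WT (0.40, adjusted p = 0.206).

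Of the other TEAD factors and the VGLL proteins, which compete with or complement YAP on TEAD, 5 of 7 were tested, and Vgll1 and Vgll2 were at or near 0 in all libraries. Tead4 rose in WT (0.61, adjusted p = 0.046), the 1 of 5 that passed there, where 20.9% of all genes were higher and 8.81% lower. It did not pass when any 1 of the 6 libraries was left out (adjusted p up to 0.121). In β8ITG-cKO, Tead3 rose (0.96, adjusted p = 0.00147), and Vgll4, an inhibitor of TEAD activity, and Vgll3 fell (-0.66, adjusted p = 0.00941, and -0.59, adjusted p = 0.031). Of all genes there, 35.4% were higher and 10.7% lower. The Vgll3 call was lost without β8ITG-cKO 0 h replicate 1 or 3 or 24 h replicate 3 (adjusted p up to 0.0927). Tead3 had 3.82, 3.93 and 3.78 FPKM in WT 0 h, 3.79, 4.96 and 3.99 FPKM in WT 24 h, 2.24, 1.96 and 2.69 FPKM in β8ITG-cKO 0 h and 6.17, 5.61 and 4.45 FPKM in β8ITG-cKO 24 h libraries. Its knockout 0 h libraries were below all others, with a genotype difference at 0 h of -0.56 (adjusted p = 0.0443) that did not pass when any 1 library was left out (adjusted p up to 0.136). Its change over time differed between genotypes (0.85, adjusted p = 0.0239), with 5 of the 12 fits that left out a library above the threshold (adjusted p up to 0.0665). In limma 0 of 5 passed between genotypes at 24 h, where 5.64% of all genes were higher and 0.644% lower. At an unadjusted p under 0.05 there were 2, with no share of all genes computed at that level. In 1 fit over 12 libraries 1 was lower, where 79.6% of all calls were higher.

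Among 17 further target genes, 8 of 16 tested were higher and 1 lower in WT at 24 h (median 0.52), and 9 were higher and 4 lower in β8ITG-cKO (median 0.36). The shares over all genes were 20.9% and 8.81% in WT and 35.4% and 10.7% in β8ITG-cKO. Axl, a receptor tyrosine kinase, had 3.34, 3.61 and 3.79 FPKM in WT 0 h and 122.81, 131.82 and 83.90 FPKM in WT 24 h, and 13.13, 7.78 and 10.83 FPKM and then 85.39, 96.88 and 88.10 FPKM in β8ITG-cKO. Unlike Cyr61, Axl was higher in the knockout at 0 h (1.31 ± 0.18, adjusted p = 0.00893), and its rise over time was smaller there (-1.61 ± 0.27, adjusted p = 0.00733). Igfbp3, which binds insulin-like growth factors, rose by 3.32 in WT and 4.44 in β8ITG-cKO (adjusted p = 0.000542 and 3.02e-05), and Myof, a membrane repair protein, by 2.85 and 2.67 (0.000103 and 2.14e-06).

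Genotype differences in that list ran in both directions. At 0 h, 2 of 15 tested were higher and 2 lower in β8ITG-cKO, against 4.18% and 2.75% of all genes, Axl and the guanine nucleotide exchange factor Dock5 (0.60, adjusted p = 0.0236) being higher and the growth arrest gene Gadd45a (-1.39, adjusted p = 0.0148) lower. Gadd45a had 13.91, 7.25 and 8.54 FPKM in WT 0 h against 3.07, 2.74 and 3.31 FPKM in β8ITG-cKO 0 h, and its change over time was larger in the knockout (1.06, adjusted p = 0.0462), a difference above the threshold in 10 of 12 fits with a library left out. The 0 h differences of Dock5 and Gadd45a were lost in 3 and 2 of 6 such fits (adjusted p up to 0.106 and 0.063), and that of Axl without β8ITG-cKO 0 h replicate 3 (0.0526). At 24 h, Nt5e, an ectoenzyme that makes adenosine, was the 1 gene of 16 that passed, at 1.37, 0.63 and 1.09 FPKM in WT and 3.45, 4.51 and 3.40 FPKM in β8ITG-cKO (1.25, adjusted p = 0.00942, and 0.0515 without β8ITG-cKO 24 h replicate 2), where 5.64% of all genes were higher. With libraries rescaled to the same median, and in 1 fit over 12 libraries, 1 gene of the list was higher and 3 were lower at 24 h. Of all calls at 24 h, 77% and 79.6% were higher in these fits. At 0 h Nt5e had 1.23, 3.45 and 0.80 FPKM in WT and 1.59, 0.80 and 1.02 FPKM in β8ITG-cKO. It was thus highest in β8ITG-cKO 24 h and in WT 0 h replicate 2, the libraries with the largest sums of retinal markers, and the part of retinal RNA in this difference was not tested. In the interaction, 2 had a larger and 5 a smaller or more negative change in β8ITG-cKO (median -0.46), against 6.83% and 2.56% of all genes.

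**Figure D4:**
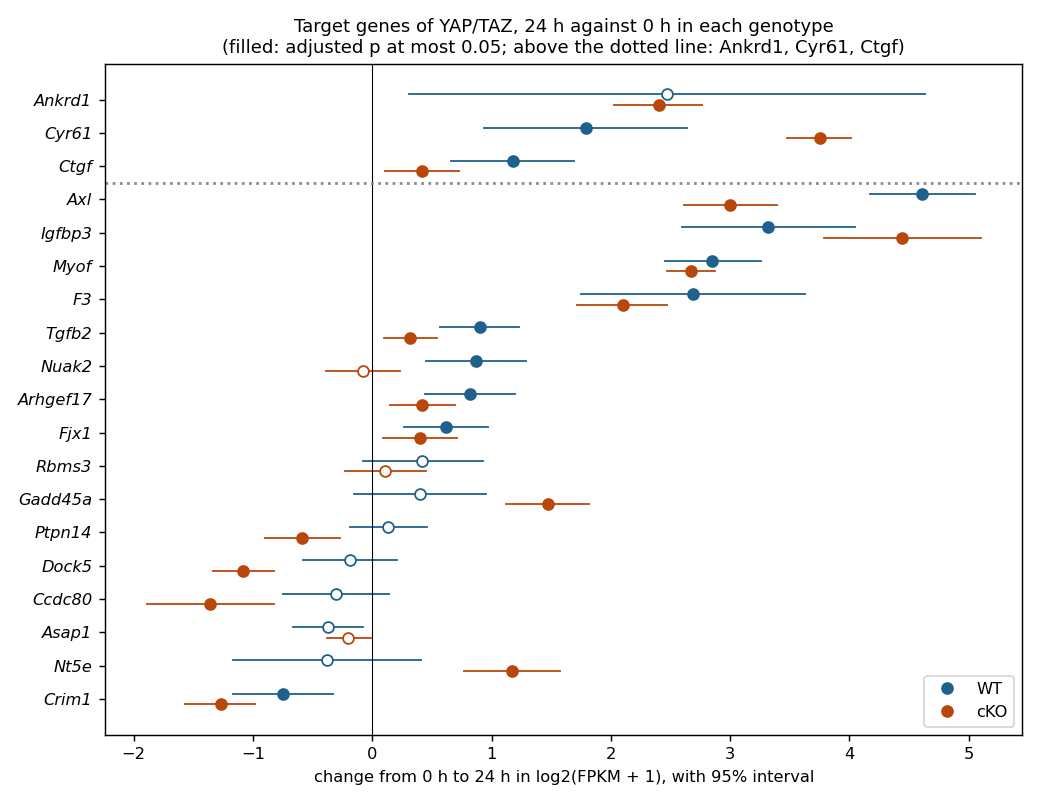
Change from 0 h to 24 h (x axis, log2 scale, with 95% intervals) of Ankrd1, Cyr61 and Ctgf above the dotted line and 16 further YAP/TAZ target genes below it, in WT and β8ITG-cKO. Axl, Igfbp3, Myof and F3 rise past the threshold in both genotypes, Crim1 falls in both, and Cyr61 rises further in the knockout.

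The genes whose profile over the 12 libraries lay nearest to each member were found by the root mean square difference of log2(FPKM + 1), each gene centred on its own mean, among 10880 genes. Cyr61 was nearest to Plk2 (0.274) and Junb (0.349), both immediate early genes. Plk2 averaged 6.85 FPKM in WT 0 h, 33.2 FPKM in WT 24 h, 0.605 FPKM in β8ITG-cKO 0 h and 20 FPKM in β8ITG-cKO 24 h, and Junb 21.3, 54.8, 2.5 and 53.4 FPKM. These genes shared the low knockout level at 0 h with Cyr61. Wwtr1 was nearest to the pseudokinase gene Stk40 (0.102) and Mapk6 (0.172), and Ankrd1 to Nppb (0.614), a natriuretic peptide gene, and Fam25c (0.638). For Ctgf the nearest were Ahnak (0.209) and Cast (0.212), for Yap1 Srek1 (0.101) and Vwa5a (0.113), and for Tead1 Fubp1 (0.099) and Nsun2 (0.121). Lats2 lay nearest to Nsd1 (0.052), Amotl2 to Ube2d-ps (0.103) and Ajuba to Ttc23 (0.148). The 12 libraries share their groups, so these values describe likeness and carry no test.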

How the data were processed

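RNA of lens cells on pooled capsules was sequenced in 3 libraries from each of 4 groups. The authors deposited FPKM per gene and library in 4 tables of 45859 genes, made with Cuffdiff 2.2.1, and the submitters' processing notes also name cutadapt 1.12, TopHat2 2.1.0 and the mm10 and GRCm38.p5 builds. A library's values were identical in every table holding it. Columns with Cuffdiff's group values, fold changes and p-values were not used. Read totals were not used here, so depth is known only relatively, and no counting interval can be given.

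Groups were compared with limma 3.58.1 (limma-trend, eBayes) in R 4.3.3 on log2(FPKM + 1), keeping genes that averaged 0.5 FPKM or more, two-sided, with Benjamini-Hochberg adjustment. The interaction used 1 fit over 12 libraries. The fits were tested on simulated data. A pseudocount of 1 understates changes of low genes. Pathway genes named are at most 3 per list and comparison, with the largest differences among those passing with at least 2 FPKM in a group, and the 2 nearest profiles were sought for each member. F3 and Crim1 were named after their values were seen. The 9 genes, the lists and the 13 marker lists were chosen with earlier results of these data known. Whether replicates came from separate animals follows the study's account of biological replicates. Promoters are RefSeq sequences of GRCm38.p6, matched for 7 of 9 genes, and exon overlaps come from GENCODE. Alternatives covered pseudocount, filter, scaling, replicate block, fit, criteria and each library left out. Plots and summaries used matplotlib 3.10.9 and pandas 2.3.3 under Python 3.11.15.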

Additional observations from a re-analysis of the deposited data

Results flagged for a closer look

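The change from 0 h to 24 h differed between genotypes, by the interaction test in limma, for Cyr61 among the 9 genes and for 8 genes of the pathway lists. Of these 8, 3 had a larger and 5 a smaller or more negative change in β8ITG-cKO. The lists held 28, 5 and 16 tested genes. Of all genes tested, 6.83% had a larger and 2.56% a smaller change, so larger changes in the lists were about as frequent as over all genes. For Cyr61 the β8ITG-cKO change exceeded the WT change by 1.96 on the log2 scale (adjusted p = 0.0171), with 3 of 3 knockout 0 h libraries below every WT 0 h library and 3 of 3 knockout 24 h libraries within the WT 24 h range. Tead3 differed by 0.85 and Gadd45a by 1.06 in the same direction (adjusted p = 0.0239 and 0.0462), and both started lower in the knockout. With a library left out, 5 of 12 fits for Tead3 and 10 of 12 for Gadd45a were above the threshold. Nt5e differed by 1.55 (adjusted p = 0.0367), and 7 of 12 fits with a library left out were above the threshold, with adjusted p up to 0.0906. Axl differed by -1.61 (adjusted p = 0.00733), having started higher in the knockout at 0 h. The Cyr61 and Axl calls held in all 12 fits that left out a library. The other 4 all had a smaller or more negative change in the knockout, by -0.89 for Dock5, -0.72 for Ptpn14, -0.95 for Nuak2 and -0.58 for Tgfb2 (adjusted p = 0.0202, 0.0362, 0.0245 and 0.037), and were named after their values were seen.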

How the results depend on the processing

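Cyr61 kept its direction and its calls over time, at 0 h and in the interaction under every alternative run, and its unpassed difference at 24 h ran from -0.47 to 0.13 with a library left out. Of 350 values of the 9 genes under the alternatives that keep all libraries, 320 kept direction and side of the threshold, 9 no longer passed, 10 newly passed and 11 changed sign, none of them a passing value. For these changes the cause was not tested. Rescaling to the same median turned Lats2 to -0.11 over time in WT and -0.23 in β8ITG-cKO, Yap1 to -0.27 in β8ITG-cKO and to -0.01 between genotypes at 0 h. Rescaling to the same FPKM sum, chosen after seeing the data, gave 0.32 for Amotl2 over time in β8ITG-cKO, -0.33, -0.14 and -0.06 for Yap1, Lats2 and Ajuba at 0 h, and 0.12 and 0.23 for Tead1 and Lats2 in the interaction. It moved the median of all genes to 0.49 over time in β8ITG-cKO and -0.27 at 0 h. A pseudocount of 0.1 gave 2.22 for Ankrd1 in the interaction.

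The number of the 9 genes passing went from 3 to 6 over time in WT in 1 fit over 12 libraries, from 6 to 3 in β8ITG-cKO with the study's criteria on fold, difference and level, from 0 to 1 at 24 h with the same median and in 1 fit, from 3 to 1 at 0 h with those criteria, and from 1 to 2 in the interaction with the same FPKM sum. Counts over all genes were 4500, 7030, 966, 1020 and 1433 over time in WT, in β8ITG-cKO, at 24 h, at 0 h and in the interaction. With the study's criteria the first 4 were 2159, 2294, 562 and 371. At 24 h a filter of 2 FPKM gave 574 and 1 fit gave 1538. At 0 h no filter gave 254 and the same FPKM sum 2761, and in the interaction a filter of 2 FPKM gave 930 and the same FPKM sum 2254. The share of calls that were higher was 89.8% at 24 h and 77% with the same median, 60.3% at 0 h and 8.37% with the same FPKM sum, and 72.8% in the interaction and 95.4% with the same sum. Over time in β8ITG-cKO it was 90.4% with the same sum.

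With 1 library left out, 2 to 5 of the 9 genes passed over time in WT, 4 to 6 in β8ITG-cKO, 0 to 1 at 24 h, 1 to 3 at 0 h and 1 to 3 in the interaction, and 2512 to 5087, 5639 to 6300, 439 to 1108, 136 to 756 and 688 to 1921 of all genes. The lowest counts came without WT 0 h replicate 1, β8ITG-cKO 0 h replicate 3, β8ITG-cKO 24 h replicate 2, β8ITG-cKO 0 h replicate 3 and β8ITG-cKO 0 h replicate 2. Values that changed sign, all unpassed, ran from -0.30 to 0.13 for Ajuba over time in WT, -0.05 to 0.08 for Yap1 and -0.17 to 0.10 for Amotl2 over time in β8ITG-cKO, -0.27 to 0.04 for Wwtr1 at 24 h, -0.18 to 0.12, -0.07 to 0.08, -0.23 to 0.08 and -0.13 to 0.14 for Tead1, Yap1, Ctgf and Amotl2 at 0 h, and -1.25 to 0.96 for Ankrd1 in the interaction.

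Of 237 pathway list counts under the alternatives, 172 stayed within 1.5 times the reported count. Replicate numbers are shared by the groups, and deviations of same-numbered libraries correlated at -0.25 to 0.10. These correlations cannot show whether same-numbered libraries were paired or shared a batch, which the labels do not give. With the replicate block, 1 of the 9 genes (Cyr61) and 269 of all genes passed at 0 h, Wwtr1 having adjusted p = 0.0678 and Ankrd1 0.0543, while Wwtr1 passed over time in WT (0.0401). Depth could be judged only relatively.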
